A study of Mus musculus with 12 samples.

Results

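The genes described here encode mitochondrial ribosomal proteins. They were taken as the protein-coding genes of the deposited gene count table whose symbol is Mrpl or Mrps followed by a number, which gave 78 of 54532 genes. They were assigned to a subunit by symbol, except that Mrps30 and Mrps18a were put in the large subunit, their established place. This gave 51 genes for the large subunit and 27 for the small subunit, with Mrps36 among the 27 by its symbol alone. The libraries were 12 RNA-seq libraries of skin tumours grown from B16F10, a pigmented mouse melanoma line. The injected tumour cells were labelled wild-type, and each injection into leg skin held 1000 of them with Matrigel; hosts were male, 8 to 12 weeks old, and received injections on both sides. In the 6 Ctrl libraries the host was Trex1 wt/fl, with 1 floxed copy of the gene for the DNA exonuclease Trex1, and in the 6 iKO libraries it was Trex1 fl/fl. Hosts of both groups carried R26CreERT2-ki/wt, a tamoxifen-dependent Cre recombinase expressed from the Rosa26 locus, and both received 1 mg of tamoxifen on each of 3 days from day 5, with harvest on day 14. Rosa26 is active in most cell types, so the Cre was not restricted to a host lineage, Ctrl hosts carried it too, and the floxed allele was not in the injected cells. Digested tumours were sorted against CD45 (on leukocytes) and CD31 (on endothelial cells); the cell type label asks for the absence of both and the protocol for the absence of either. The labels name the library source as single cell, while the table has 1 column per tumour library. They give 1 batch and do not tie libraries to mice, so libraries may share a mouse, and p-values measure the spread between these libraries only.

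Mitochondria carry their own ribosome, which is distinct from the ribosome of the cytosol and descends from that of bacteria. Its rRNAs are encoded by mitochondrial DNA, whereas all of its proteins are encoded in the nucleus, made in the cytosol and imported. It translates a small set of mRNAs of mitochondrial DNA, all of which encode membrane subunits of the respiratory chain and of ATP synthase. The small subunit binds the mRNA and decodes it; the large subunit forms the peptide bond and passes the chain to the inner membrane. Part of the proteins have a counterpart in bacterial ribosomes, and the others were added in the mitochondrial lineage.

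Promoters of such nuclear genes are known for sites of the transcription factors NRF1, GABP (an ETS factor) and YY1. RefSeq windows on GRCm38.p6, from 250 bases before to 50 bases after the start, were available for 69 of the 78 genes. The NRF1 core GCGCANGCG was present on either strand in 23.2% of these genes, against 14.6% of the 10484 tested protein-coding genes with a window and 10% of all 16497 protein-coding genes with one. The ETS core CCGGAAGT was present in 17.4%, against 8.79% and 5.93%. The YY1 core AANATGGCG was present in 15.9%, against 5.67% and 3.82%. At least 1 of the 3 motifs was found in 52.2% of the genes, against 25.8% and 17.7%. These shares describe letters in a window, not binding. The stretches below belong to genes to which the results return: Mrpl12 and Mrpl10, neighbours in the ribosome that changed by different amounts, and Mrps27 and Mrps22, small subunit proteins without a bacterial counterpart. Each is a stretch of 60 bases from the part upstream of the RefSeq start, printed along the gene's strand, and contains no base of a GENCODE M21 exon. The stretches run from 106 to 47 bases before the start for Mrpl12 and from 161 to 102 for Mrpl10. They run from 75 to 16 bases before it for Mrps27 and from 60 to 1 for Mrps22. Capitals mark the match: an NRF1 core in the first pair and an ETS core in the other.
Mrpl12: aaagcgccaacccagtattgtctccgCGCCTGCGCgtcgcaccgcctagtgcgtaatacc
Mrpl10: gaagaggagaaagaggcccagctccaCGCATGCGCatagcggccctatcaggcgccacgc
Mrps27: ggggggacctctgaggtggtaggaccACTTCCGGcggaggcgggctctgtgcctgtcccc
Mrps22: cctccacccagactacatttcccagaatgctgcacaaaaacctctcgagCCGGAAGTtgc
The Mrpl12 stretch lies at chr11:120484531-120484590 and that of Mrpl10 at chr11:97041421-97041480, both on the plus strand. The Mrps27 stretch lies at chr13:99344711-99344770 on the plus strand and that of Mrps22 at chr9:98601680-98601739 on the minus strand. The capitals of Mrpl12, Mrpl10 and Mrps27 are the reverse complement of the motif as written above, and those of Mrps22 are the motif itself.

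On the scale used throughout, the mitochondrial ribosomal protein mRNAs were lower in iKO tumours, and relative to pigment cell markers most of this difference was absent. Levels are CPM, the counts divided by a library size scaled by TMM, a normalization that assumes that most genes do not change, and tests are edgeR's quasi-likelihood test with adjustment by Benjamini-Hochberg over the 16164 genes tested and a threshold of 0.05. Of the 77 members tested, 57 were lower in iKO, 0 were higher and 20 passed in neither direction. Over all tested genes, 21.4% were lower and 25% higher. The fitted log2 fold change was negative for all 77 members, with a median of -0.34, a level of 0.7885 times that in Ctrl, and a range of -0.80 to -0.03. The median of all tested genes was 0.02. When the 12 libraries were scaled on 8 pigment cell markers, a scaling chosen after seeing the data, 3 members were lower, 4 were higher and the median was 0.02. These markers did not change alike. On the TMM scale their log2 fold changes were -0.03 for Pmel, -0.20 for Sox10 and -0.35 to -0.46 for the others. The result on the pigment scale thus depends on the markers used, and other marker sets were not tested. That scaling moved the median of all genes to 0.39, with 8187 genes higher and 321 lower in place of 4037 and 3464. The members' median minus that of all genes was -0.37 on both scales. In such bulk libraries, fewer cells of a type and less of its RNA per cell cannot be told apart.

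**Figure D1:**
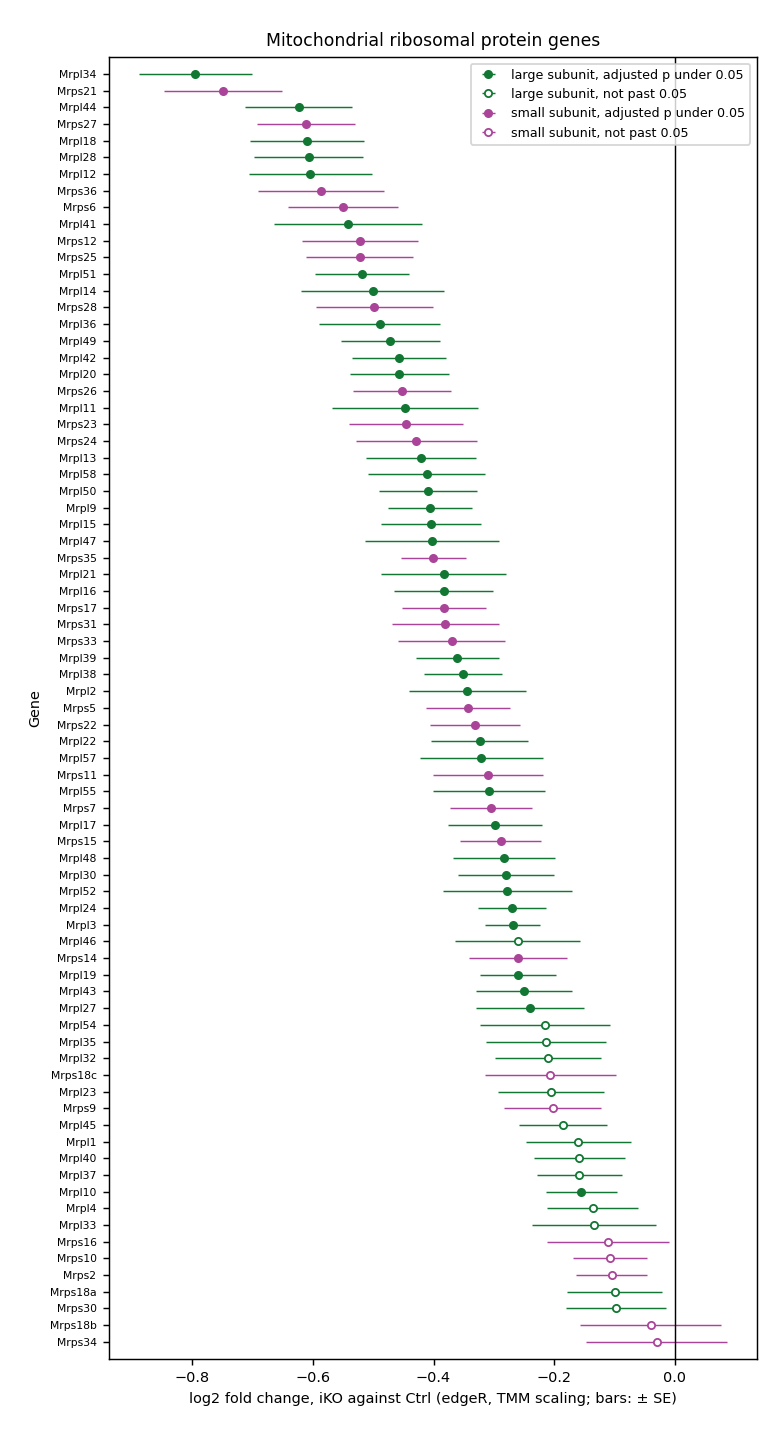
Log2 fold change (x axis, iKO against Ctrl, TMM scaling, bars ± SE) of the 77 tested genes, ordered by size on the y axis and coloured by subunit, with filled points for an adjusted p under 0.05. All points lie below 0, from -0.80 for Mrpl34 to -0.03 for Mrps34, and 57 are filled; with scaling on pigment cell markers the median is 0.02 and 3 genes are lower.

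The summed level of the 78 genes was 3717 ± 317 CPM in Ctrl and 2905 ± 200 CPM in iKO (SD, n = 6 each), a ratio of 0.7816. Ctrl libraries 1 to 6 held 3448, 3455, 3638, 3977, 4228 and 3555 CPM. The iKO libraries 1 to 6 held 2942, 2898, 3046, 2564, 2835 and 3145 CPM. The sums of the groups did not overlap: the highest iKO library, iKO 6, lay below the lowest Ctrl library, Ctrl 1. The genes took 0.375% of all counts in Ctrl and 0.287% in iKO. Within Ctrl, Ctrl 5 had the highest level of 58 of the 77 tested genes and Ctrl 4 of 15, so these libraries set most of the spread of that group. Within iKO, iKO 4 had the lowest level of 53 genes and iKO 6 the highest of 37.

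**Figure D2:**
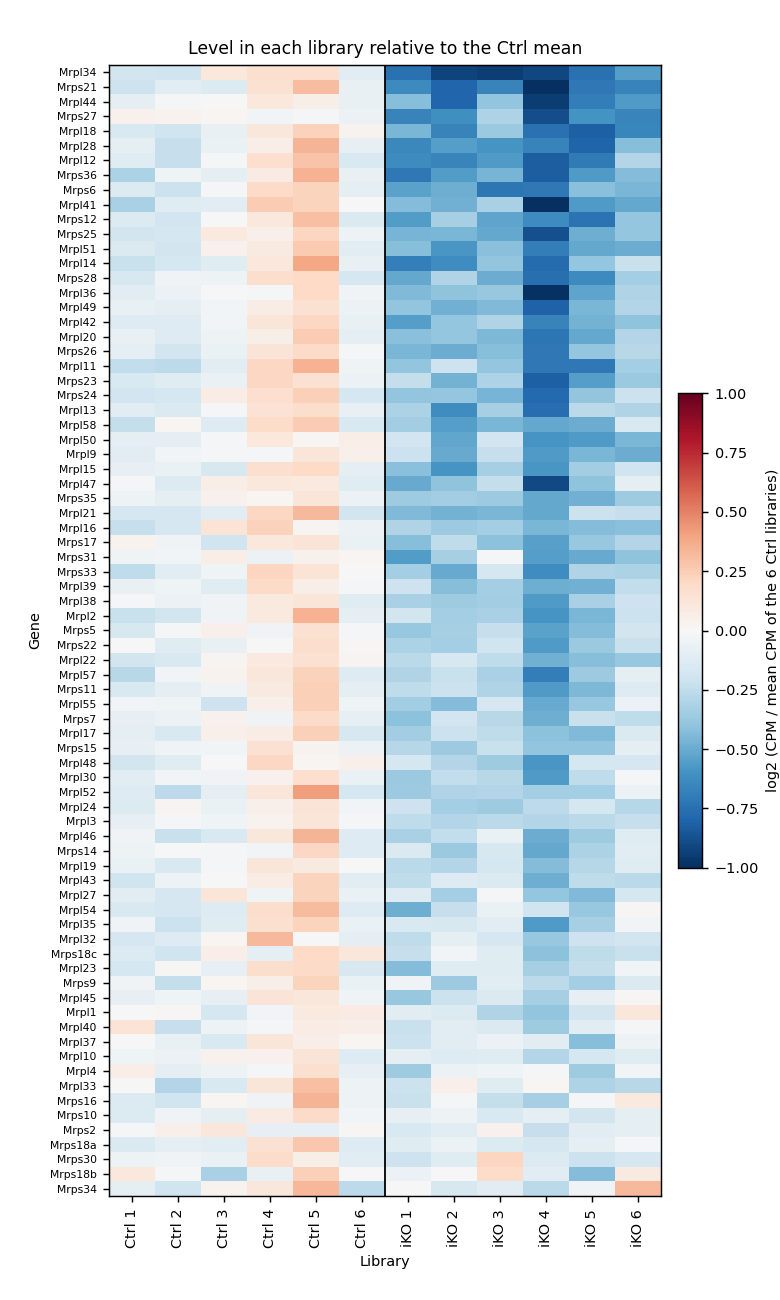
Log2 ratio of each gene's CPM (rows, ordered by fold change) in each library (columns) to the mean of the 6 Ctrl libraries, on the TMM scale, blue below and red above that mean. Ctrl 5 is the reddest Ctrl column and iKO 4 the bluest iKO column; as a percentage of the pigment cell marker sum, only iKO 1 lies below the Ctrl range.

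For 37 members the 6 iKO libraries lay entirely below the 6 Ctrl libraries, and all 37 passed the test. The share of all tested genes with such a separation was 11.1%. For 68 members each of the 6 iKO libraries was below the Ctrl mean, a count that was not taken over all tested genes. Among the members that passed, 14 had a log2 fold change of -0.5 or less, 31 lay between -0.5 and -0.3, and 12 lay above -0.3. Their folds ran from 0.5762 to 0.8984. Members were of middling abundance, so the background was also taken in the 8348 genes of the same range of mean level, 7.72 to 115 CPM. There, 28.4% were lower in iKO, 26.5% were higher, and the median log2 fold change was -0.03. Counts were ample, with at least 183 reads for each tested member in each library.

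Both subunits were lower on the TMM scale, which with scaling on pigment cell markers ended for all but 3 members. In the large subunit 37 of 50 tested genes were lower, with a median log2 fold change of -0.32, and in the small subunit 20 of 27, with a median of -0.37. The ratio of the summed large to the summed small subunit was between 2.11 and 2.23 in all 12 libraries, a value that no scaling of libraries can change. Among the 48 genes with a bacterial counterpart 35 were lower, with a median of -0.31. Among the 29 tested genes specific to mitochondria 22 were lower, with a median of -0.37. The 10 small subunit genes specific to mitochondria included 9 that were lower, with a median of -0.42, against 11 of 17 and a median of -0.30 for small subunit genes with a bacterial counterpart. Mrps36, placed by its symbol, is counted among these 10 and among the 9. The difference between these classes was not tested.

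Mrpl34, a small protein of the large subunit with a bacterial counterpart, had the lowest log2 fold change. The gene lies on chromosome 8 from 71464959 to 71465747 (mm10, plus strand). It ranged from 30.73 to 39.61 CPM in Ctrl (median 35.2) and from 18.37 to 24.03 CPM in iKO (median 19.85). The groups were far apart, and the log2 fold change was -0.80 (SE 0.09, adjusted p = 2.67e-05). Mrps21, a small subunit protein with a bacterial counterpart, lies on chromosome 3 from 95862634 to 95871519 on the minus strand. Its range was 45.58 to 65.18 CPM in Ctrl (median 49.39) and 25.06 to 33.89 CPM in iKO (median 32.62). Again no iKO library reached a Ctrl library, with a log2 fold change of -0.75 (SE 0.10, adjusted p = 6.15e-05). Mrpl44, a mitochondria-specific protein at the surface of the large subunit, lies on chromosome 1 from 79776018 to 79781445 on the plus strand. It ranged from 59.43 to 67.99 CPM in Ctrl (median 62.93) and from 32.7 to 48.03 CPM in iKO (median 40.92), with a log2 fold change of -0.62 (SE 0.09, adjusted p = 1.04e-04). Mrpl34, Mrps21 and Mrpl44 were also the 3 members that were lower with scaling on pigment cell markers. Their log2 fold changes there were -0.44, -0.40 and -0.28 (edgeR adjusted p = 0.00236, 0.00497 and 0.00987). In a fit with a leukocyte covariate Mrpl34 and Mrps21 passed (edgeR adjusted p = 0.00567 and 0.00582) and Mrpl44 did not (adjusted p = 0.0712).

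Mrps27, a pentatricopeptide repeat protein of the small subunit, was the steadiest of the strongly changed genes within Ctrl. It lies on chromosome 13 from 99344786 to 99415562, and 24.2% of its exon bases are shared with 6430562O15Rik, so part of its reads may be ambiguous. Its range was 33.24 to 35.62 CPM in Ctrl (median 34.67) and 18.78 to 27.9 CPM in iKO (median 22.3). The log2 fold change was -0.61 (SE 0.08, adjusted p = 6.6e-05). Mrpl18, a large subunit protein of the family that in other ribosomes binds 5S rRNA, fell from 41.52 ± 4.81 to 27.22 ± 3.29 CPM (SD, n = 6 each; log2 fold change -0.61, edgeR adjusted p = 2.04e-04). Mrpl28 fell from 61.88 ± 8.88 to 40.61 ± 3.55 CPM (log2 fold change -0.61, edgeR adjusted p = 1.56e-04). With scaling on pigment cell markers, Mrps27, Mrpl18 and Mrpl28 kept the sign, at -0.25 each, and none passed (edgeR adjusted p = 0.0547, 0.0536 and 0.0867). In the fit with a leukocyte covariate Mrps27 did not pass (edgeR adjusted p = 0.0527). Mrpl18 and Mrpl28 passed there (edgeR adjusted p = 0.0243 and 0.00167).

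**Figure D3:**
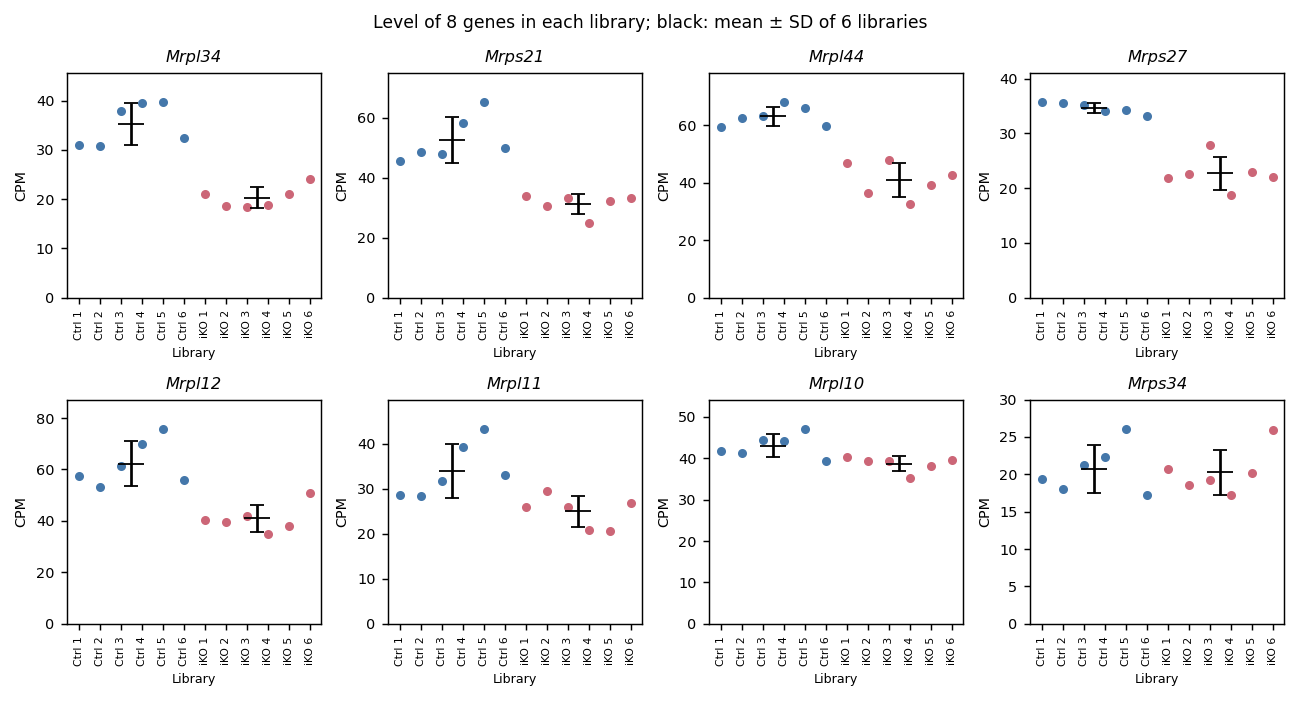
CPM on the TMM scale (y axis, from 0) of 8 genes in the 6 Ctrl (blue) and 6 iKO (red) libraries, with the mean ± SD of each group in black. Mrpl34, Mrps21, Mrpl44, Mrps27 and Mrpl12 show no overlap between groups, whereas Mrpl10 differs little and Mrps34 overlaps throughout; with scaling on pigment cell markers Mrpl10 and Mrps34 have positive log2 fold changes, 0.20 and 0.32.

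The stalk of the large subunit recruits the translation factors that bind GTP. Its members are Mrpl12, the protein that contacts the factors, Mrpl10, which anchors Mrpl12, and Mrpl11, which lies at the stalk's base. Mrpl12 ranged from 53.07 to 75.83 CPM in Ctrl (median 59.42) and from 35.11 to 50.87 CPM in iKO (median 39.83), with no overlap and a log2 fold change of -0.60 (SE 0.10, adjusted p = 3.64e-04). Mrpl10 ranged from 39.33 to 47.14 CPM in Ctrl (median 43.05) and from 35.18 to 40.2 CPM in iKO (median 39.42), so the groups overlapped, with a log2 fold change of -0.15 (SE 0.06, adjusted p = 0.0465). The Mrpl10 call was lost when any of 10 libraries was left out in turn, and its sign turned to 0.20 with scaling on pigment cell markers. The call was also lost with a leukocyte covariate (edgeR adjusted p = 0.24). Mrpl11 ranged from 28.37 to 43.36 CPM in Ctrl (median 32.34) and from 20.71 to 29.47 CPM in iKO (median 26), with a log2 fold change of -0.45 (SE 0.12, adjusted p = 0.00792). A ratio of 2 genes in the same library does not depend on how libraries are scaled. It can depend on reads of overlapping genes. Mrpl12 shares 13.1% of its exon bases with Gm16755 and Mrpl10 shares 14.1% with Gm11574, so part of their reads may be ambiguous. The log2 ratio of Mrpl12 to Mrpl10 was 0.52 ± 0.13 in Ctrl and 0.08 ± 0.14 in iKO (SD, n = 6 each), and no iKO library reached the lowest Ctrl library. The difference was -0.45 (two-sided exact permutation test over 924 assignments of the libraries, p = 0.00216, the smallest it can give; adjusted over 3 ratios, p = 0.00648). The log2 ratio of Mrpl11 to Mrpl10 differed by -0.29 (exact permutation p = 0.0238, adjusted p = 0.0357) and that of Mrpl12 to Mrpl11 by -0.16 (exact permutation p = 0.0758, adjusted p = 0.0758). These ratios were chosen after the values had been seen, so the p-values describe the spread and are no independent evidence.

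In the core of the large subunit, Mrpl2, which lies at the peptidyl transferase centre and had the highest level per length of the large subunit (58.79 CPM per kb), went from 76.96 ± 11.7 to 60.61 ± 6.22 CPM (log2 fold change -0.34, edgeR adjusted p = 0.01). Mrpl3 had a log2 fold change of -0.27, Mrpl16 of -0.38 and Mrpl27 of -0.24, and all 3 passed; Mrpl3 and Mrpl16 help to shape the catalytic centre, and Mrpl27 reaches toward it. The Mrpl27 call (edgeR adjusted p = 0.0398) was lost in 6 of the 12 fits that left out a library, with a replicate block (adjusted p = 0.0626) and with a leukocyte covariate (adjusted p = 0.249). With scaling on pigment cell markers Mrpl2, Mrpl3 and Mrpl27 had positive log2 fold changes of 0.01, 0.09 and 0.11. At the exit of the tunnel for the new chain, Mrpl22 (-0.32), Mrpl24 (-0.27), Mrpl39 (-0.36) and Mrpl44 were lower, whereas Mrpl23 (-0.21, edgeR adjusted p = 0.0695) and Mrpl45 (-0.18, edgeR adjusted p = 0.0504), which links the ribosome to the inner membrane, did not pass. On the pigment scale Mrpl22, Mrpl23, Mrpl24 and Mrpl45 had positive log2 fold changes of 0.04, 0.16, 0.09 and 0.18. Mrpl58, also known as ICT1, a release factor that became part of the ribosome, had a log2 fold change of -0.41. Mrpl41 had one of -0.54, and both passed. With the leukocyte covariate Mrpl2, Mrpl16, Mrpl22, Mrpl24, Mrpl39, Mrpl41 and Mrpl44 lost the call too (edgeR adjusted p = 0.0555 to 0.15). Mrpl3 and Mrpl58 kept it (edgeR adjusted p = 0.017 and 0.0314).

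In the small subunit, Mrps12, which belongs to the decoding site, had a log2 fold change of -0.52, and Mrps7 one of -0.30; both passed. Mrps23 and Mrps24 were, after Mrps21, the small subunit genes of highest level per length, at 49.93 and 36.87 CPM per kb, and had log2 fold changes of -0.45 and -0.43. Mrps22, a mitochondria-specific protein, ranged from 29.86 to 36.55 CPM in Ctrl (median 32.39) and from 21.87 to 28.18 CPM in iKO (median 25.84). The groups did not overlap, and the log2 fold change was -0.33. With scaling on pigment cell markers Mrps7 and Mrps22 had positive log2 fold changes of 0.06 and 0.03. In the fit with a leukocyte covariate Mrps23 and Mrps22 did not pass (edgeR adjusted p = 0.147 and 0.0631). Mrps36 fell from 30.08 ± 4.76 to 20.03 ± 2.01 CPM (log2 fold change -0.59, edgeR adjusted p = 0.00054); its product is also known as a part of the 2-oxoglutarate dehydrogenase complex of the citric acid cycle.

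The 20 tested members that did not pass had log2 fold changes of -0.26 to -0.03. Mrps34, a mitochondria-specific protein, ranged from 17.28 to 26.09 CPM in Ctrl (median 20.28) and from 17.18 to 25.87 CPM in iKO (median 19.72), and the groups overlapped over nearly their whole range (log2 fold change -0.03, SE 0.12, adjusted p = 0.852). However, 77.8% of its exon bases are shared with Mapk8ip3. With scaling on pigment cell markers Mrps34 was higher, at 0.32 (edgeR adjusted p = 0.0349). The 3 mammalian forms related to bacterial S18 take different places in the ribosome, and none passed: the log2 fold changes were -0.10 for Mrps18a, -0.04 for Mrps18b and -0.21 for Mrps18c. Mrps18b and Mrps18c had low levels for this family, with means of 12.46 and 8.27 CPM in Ctrl. Mrps16, a small subunit protein with a bacterial counterpart, had a log2 fold change of -0.11 (SE 0.10), and Mrps30, which sits in the large subunit, of -0.10 (SE 0.08). Others without a call included Mrps2, Mrps9, Mrps10, Mrpl1, Mrpl4 and Mrpl37. On the pigment scale Mrps2, Mrps10 and Mrps18a were higher, at 0.26 each (edgeR adjusted p = 0.0266, 0.0369 and 0.05).

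Mrpl53 was the member that was not tested. It had 0 counts in all 12 libraries, and 88% of its exon bases are shared with the gene model Gm42688, so the count of 0 cannot be read as a lack of its mRNA. For a gene whose reads are counted, a count of 0 allows up to 3 counts, which is 0.0655 to 0.101 CPM in these libraries. That limit does not hold for Mrpl53 if reads of shared bases were left out or given to another gene. In all, 7 members share at least 25% of their exon bases with another gene, among them Mrps25 (69.8%, Nr2c2), Mrpl19 (36%, Gcfc2), Mrpl43 (33.4%, Twnk), Mrps18b (30.5%, Gm16279) and Mrpl24 (26.3%, Rrnad1), and 45 members share none. The labels' protocol describes a library that does not keep the strand, so reads of overlapping genes could not be told apart. The processed pseudogenes named after members had few counts, at most 407 summed over the 6 Ctrl libraries for Mrpl48-ps.

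The size of the change was related to gene length, which is given as a description across genes that are not independent. Spearman's rho between deposited gene length and log2 fold change was 0.35 over the 77 members and 0.19 over all 16164 genes. With mean CPM per kb, a measure that contains the length, rho was -0.47 over the members. Members below their median length were lower in 32 of 38 cases, with a median of -0.40, and the longer members in 25 of 39, with a median of -0.28. The median length was 2255 bases for members and 3831.5 bases for all tested genes. All tested genes within the members' range of length had a median log2 fold change of -0.0025. The part of length or of RNA quality in the result was not tested.

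Genes that make and serve the mitochondrial ribosome were in part lower too on the TMM scale, with medians of -0.26, -0.20, -0.30, -0.16 and -0.20 in the 5 lists that follow. Of 5 ribosomal proteins with other symbols, 4 were lower; Dap3, a GTP-binding protein of the small subunit, had a log2 fold change of -0.26, and Ptcd3 one of -0.24. Of 28 genes for assembly and rRNA modification 12 were lower and 0 higher, with Mpv17l2 at -0.45 and Grsf1 at -0.27. Of 14 tested translation factors 8 were lower and 0 higher; the elongation factors Gfm1 and Tufm had log2 fold changes of -0.48 and -0.39. Of 20 mitochondrial aminoacyl-tRNA synthetases and related genes, 7 were lower and 0 higher. Of 21 tested genes for the expression and maintenance of mitochondrial DNA 10 were lower and 1 was higher; Twnk, the helicase of mitochondrial DNA, had a log2 fold change of -0.58, and Ssbp1, which coats single-stranded mitochondrial DNA, of -0.51. Twnk shares exon bases with Mrpl43. With scaling on pigment cell markers, the numbers lower and higher in these 5 lists were 0 and 0, 0 and 8, 0 and 1, 1 and 5, and 0 and 5, where 1.99% of all genes were lower and 50.6% higher. On the TMM scale the share of all genes that were lower was 21.4%.

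Of the 13 mitochondrially encoded mRNAs that this ribosome translates, 0 were lower and 1 was higher, with a median log2 fold change of 0.12. That gene was mt-Co1, a subunit of cytochrome c oxidase, which went from 5079 ± 614 to 7734 ± 2050 CPM (log2 fold change 0.61, edgeR adjusted p = 0.00953). With a leukocyte covariate mt-Co1 was at 0.09 (edgeR adjusted p = 0.918), and with scaling on pigment cell markers 9 of the 13 mRNAs were higher, where 50.6% of all genes were. Counts of these mRNAs were uneven: Ctrl means ran from 5079 CPM for mt-Co1 to 4.15 for mt-Nd3, 1.00 for mt-Nd4l and 0.47 for mt-Atp8. Their sum thus rests on the most counted genes, and the lack of a call says little for the least counted. The members' sum was 25.8% to 42.5% of the summed mitochondrial mRNAs in Ctrl and 14% to 31.8% in iKO. The ranges overlapped through iKO 1 alone (31.8%), and the other iKO libraries, at 14% to 24.5%, lay below every Ctrl library. Among 10 tested regulators of nuclear genes for mitochondria, Nrf1 (-0.22) and Gabpb1 (-0.28), a subunit of GABP, were lower, and Pprc1 (0.28) and Max (0.16) were higher; Max was named after its value was seen. These counts, 20% lower and 20% higher, were near the shares over all genes, 21.4% and 25%. Gabpa, the gene of another subunit of GABP, and Yy1 had no call. Their log2 fold changes were -0.17 and -0.02 (edgeR adjusted p = 0.0745 and 0.721), and both were named after their values were seen. The Pprc1 call was lost with library totals, upper quartiles, no filter, the leukocyte covariate, and without iKO 2 or iKO 4 (edgeR adjusted p = 0.0507 to 0.0708), also with iKO 2 and iKO 3 left out (adjusted p = 0.116). With the leukocyte covariate Nrf1 (edgeR adjusted p = 0.35) and Gabpb1 (adjusted p = 0.148) did not pass. On the pigment scale Nrf1 and Gabpb1 had positive log2 fold changes of 0.15 and 0.08 and did not pass. Motifs of the 3 factors were in the windows of 26 of 51 members that were lower and of 10 of 18 others, or 51.0% and 55.6%.

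Other large families of nuclear genes changed alongside. Cytosolic ribosomal protein genes were lower in 75 of 84 tested cases, with a median log2 fold change of -0.34 on the TMM scale. The mitochondrial ribosome supplies several subunits of respiratory complex I. Of 37 nuclear genes listed for that complex by their Nduf symbols alone, 34 were lower, with a median of -0.42. Whether each of the 37 encodes a subunit of complex I was not checked. Cell cycle genes were lower in 21 of 22 cases, with a median of -0.64; Ccnb1, the gene of the mitotic cyclin B1, had a log2 fold change of -1.04. On the pigment scale these 3 lists had medians of 0.02, -0.07 and -0.27, and 0, 2 and 11 genes were lower. The members' sum was 6.5% to 7.15% of the cytosolic ribosomal protein sum in Ctrl and 6.36% to 7.49% in iKO, so the ranges overlapped.

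**Figure D4:**
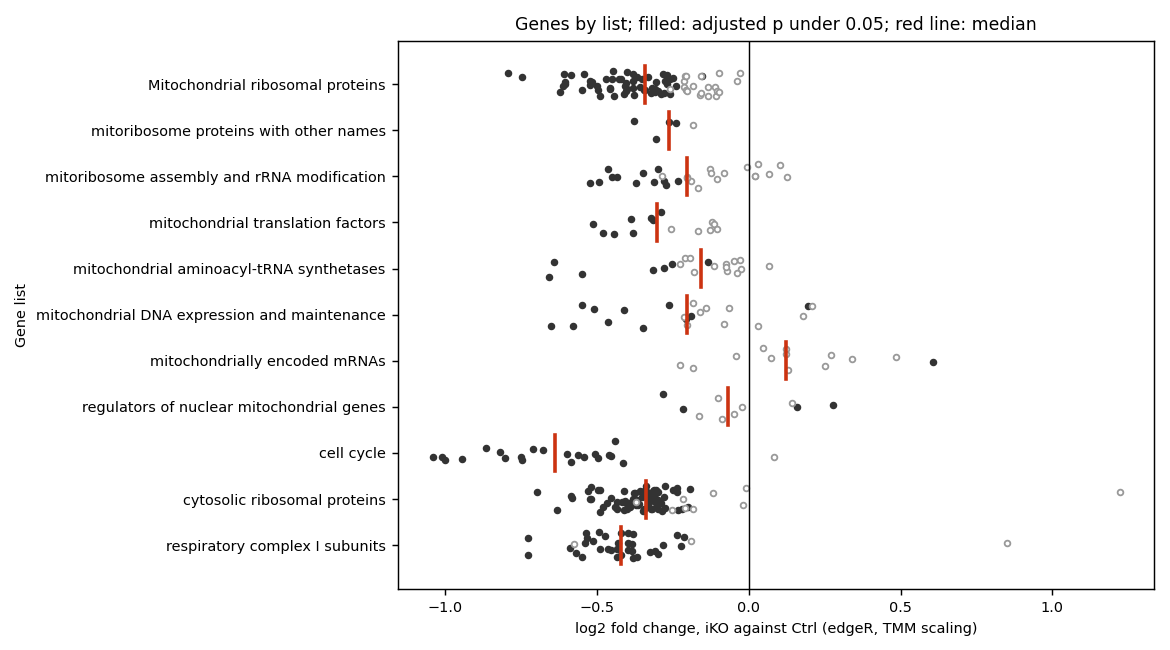
Log2 fold change on the TMM scale (x axis, iKO against Ctrl) of each tested gene of 11 lists (y axis), filled where the adjusted p was under 0.05, with the median as a red line. The mitochondrial ribosomal proteins have a median of -0.34, as have the cytosolic ones, and the mitochondrially encoded mRNAs one of 0.12; on the pigment scale these medians are 0.02, 0.02 and 0.51.

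The make-up of the sorted cells differed between the groups, and the values are given beside the result. All 10 leukocyte markers were higher in iKO, and their sum was 69.41 to 240.1 CPM in Ctrl and 204.3 to 2201 CPM in iKO. Cd52 was at 0 in 3 Ctrl libraries and Cd48 in 2. All 11 T cell and 10 of 11 macrophage markers were higher, where 25% of all tested genes were. Of 8 fibroblast markers 2 were higher, also 25%, so that count equals the share over all genes. The fibroblast sum was 2279 to 2603 CPM in Ctrl, and it varied between iKO libraries. It was 14740 CPM in iKO 2 and 10190 CPM in iKO 5, but 2403 CPM in iKO 1 and 2451 CPM in iKO 4, within the Ctrl range. In iKO 6 it was 634.8 CPM and in iKO 3 1898 CPM, below every Ctrl library. Endothelial markers were higher in 3 of 6 cases (Pecam1, which encodes CD31, at a log2 fold change of 1.38). Keratinocyte markers were higher in 4 of 4 tested, skeletal muscle markers in 3 of 5 and erythroid markers in 0 of 2. The keratinocyte sum was 1.981 to 3.034 CPM in Ctrl, 167.4 CPM in iKO 2 and 5.252 to 12.65 CPM in the other iKO libraries. The muscle sum was 4.44 to 6.671 CPM in Ctrl, 52.5 CPM in iKO 2, 47.83 CPM in iKO 5 and 4.451 to 9.848 CPM in the other iKO libraries. Of the 8 pigment cell markers, which mark the melanoma cells, 7 were lower, and Pmel (log2 fold change -0.03) had no call. The sum of the 8 was 22670 to 23060 CPM in Ctrl, 22570 CPM in iKO 1 and 15730 to 19270 CPM in the other 5 iKO libraries. The members' sum as a percentage of the pigment cell sum was 15.1, 15, 15.8, 17.5, 18.6 and 15.7 in Ctrl 1 to 6. It was 13, 18, 17.5, 16.3, 15.6 and 16.3 in iKO 1 to 6. Thus iKO 1 lay below all Ctrl libraries and the other 5 iKO libraries lay within the range of Ctrl. In iKO 1, 64 of the 77 members were below every Ctrl library on the TMM scale, a count that was not taken over all tested genes. Its leukocyte sum, 204.3 CPM, was below that of Ctrl 5 and above the other 5 Ctrl libraries (69.41 to 91.88 CPM), and its T cell marker sum, 15.96 CPM, was above every Ctrl library (3.77 to 10.23 CPM). With a leukocyte score as a covariate, 34 members were lower, 29 of them among the 57, and the median log2 fold change was -0.53. In that fit 6.79% of all genes were lower, in place of 21.4%. The score largely followed the group. It was -0.25 to 1.48 in Ctrl apart from Ctrl 5 (4.06), and 6.49 to 7.37 in iKO apart from iKO 1 (3.76). Without Ctrl 5 and iKO 1, the libraries nearest to the other group in leukocyte markers, 51 members were lower and the median was -0.28. Of all genes, 20.3% were lower in that fit. Trex1 had 0 counts in all 12 libraries, so the genotype labels could not be checked in these data.

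**Figure D5:**
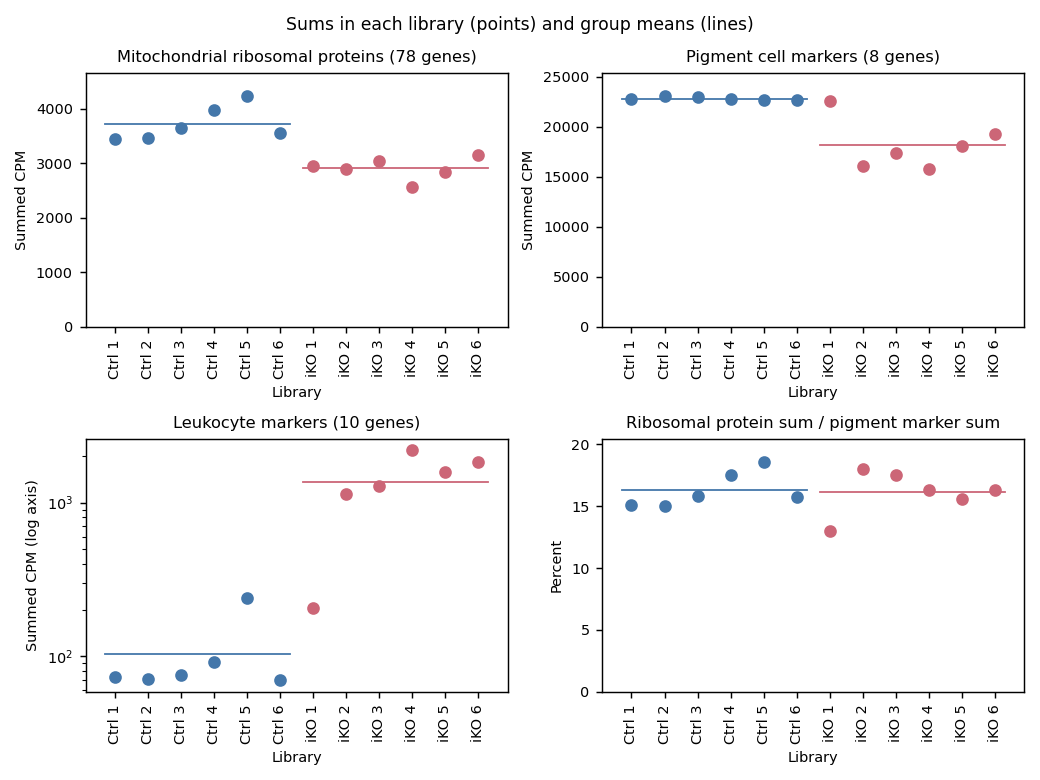
Summed CPM on the TMM scale of the 78 mitochondrial ribosomal protein genes, of 8 pigment cell markers and of 10 leukocyte markers (log axis) in each library, and the first sum as a percentage of the second, with group means as lines. The ribosomal protein sum is lower in all 6 iKO libraries, whereas as a percentage of the pigment cell sum it is below the Ctrl range in iKO 1 alone.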

How the data were processed

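Messenger RNA of 6 Ctrl and 6 iKO tumour libraries was selected with poly-T beads and sequenced without keeping the strand, per the labels' protocols. The deposited table holds the authors' raw counts for each Ensembl gene and a gene length in bases. Reads were placed on mm10, as the submitters' processing notes name it; which aligner and counter were run, and with which strand setting, is not given in the sources used here. Libraries held 29808243 to 45828565 counts. From these counts, edgeR 4.0.16 (R 4.3.3) kept 16164 genes with filterByExpr (minimum count 10, minimum total 15), scaled libraries by TMM and ran the robust quasi-likelihood test of iKO against Ctrl, with p-values adjusted by Benjamini-Hochberg over all of them and called at 0.05. SE is the log2 fold change divided by the square root of F. Sums cover all genes of a list. Shared exon bases were computed from GENCODE M21 (GRCm38), in which 73 of the 78 members have the deposited start and end; promoter windows came from RefSeq. Alternatives were other scalings (RLE, library totals, upper quartile, pigment cell markers), DESeq2 1.42.0, limma 3.58.1 with voom, no filter, a replicate block, a leukocyte covariate and leaving out libraries.

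Members and lists were chosen with earlier results of these data known. Members were named by size of change (6 largest falls), by level per kb (3 in each subunit), by established role, or because they were not tested; from each list, up to 3 genes of smallest p were considered. Mrps2, Mrps9, Mrps10, Mrpl1, Mrpl4, Mrpl37 and the genes named for shared exons were added after their values were seen.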

Additional observations from a re-analysis of the deposited data

Results flagged for a closer look

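Among 66 groups of 6 libraries of the named members, 2 had a library far from the rest of its group, and chance alone flags about 1 group in 20. Mrps16 was at 31.75 CPM in Ctrl 5, against 25.39 CPM in the next highest Ctrl library. Mrps30 was at 41.14 CPM in iKO 3, against 32.57 CPM in the next highest iKO library. Neither gene passed the test between the groups.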

How the results depend on the processing

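No member was higher under any alternative other than scaling on pigment cell markers. The number lower was 55 with RLE, 64 with library totals, 69 with upper quartiles, 58 with DESeq2, 56 with voom and 64 without a filter. In the same order, the shares of all genes that were lower were 20.7%, 23.3%, 26.7%, 22%, 22% and 12.9%. Leaving out single libraries gave 51 to 60 members lower and medians of -0.37 to -0.27, with 16.1% to 22.6% of all genes lower. Of the 57 members, 50 kept the call in all 12 such fits, and Mrpl10 and Mrpl27 were among those that did not. The leukocyte covariate gave 34 members lower and a median of -0.53, with 6.79% of all genes lower, and Pecam1 went from 1.38 to -0.0818. Of the 32 members named by the naming rule, 12 lost the call with this covariate and 2 gained it. With iKO 2 and iKO 3 left out, 55 members and 18% of all genes were lower.

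Scaling on pigment cell markers, added after seeing the data, left 3 members lower and 4 higher, with a median of 0.0161; the cause was not tested. Of the 77 members, 41 had a positive log2 fold change there. Among members named by the naming rule that passed on either scale, these were 0.00639 for Mrpl2, 0.20 for Mrpl10, 0.0933 for Mrpl3, 0.11 for Mrpl27, 0.0379 for Mrpl22, 0.0902 for Mrpl24, 0.0597 for Mrps7, 0.0253 for Mrps22, 0.32 for Mrps34 and 0.26 for Mrps18a. Among those that passed on neither scale, they were 0.32 for Mrps18b, 0.27 for Mrps30, 0.25 for Mrps16, 0.18 for Mrpl45, 0.16 for Mrpl23 and 0.16 for Mrps18c. Outside the family they were 0.10 for Dap3, 0.12 for Ptcd3, 0.0505 for Aurkaip1, 0.0876 for Grsf1, 0.00966 for Ngrn, 0.0473 for Guf1, 0.0876 for Tars2, 0.0814 for Gabpb1 and 0.15 for Nrf1.

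With the replicate number as a replicate block, 53 members were lower and the median was -0.34, with 18.5% of all genes lower. The block moved Mrpl10 to an adjusted p of 0.12 and Mrpl27 to 0.0626 (edgeR). Same-numbered libraries showed no clear common deviation (correlations of -0.13 to 0.25, with 1 of 6 Ctrl libraries correlating best with its own number). So few pairs cannot decide whether the numbers mark a pairing or only name libraries. Depth did not limit the tested members, but it cannot resolve reads of overlapping genes.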
